A study of Mus musculus with 12 samples.

Results

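The contractile apparatus of smooth muscle cells and myofibroblasts was followed through 10 genes: Acta2, Tagln, Myh11, Cnn1, Actg2, Des, Lmod1, Mylk, Tpm1 and Cald1. They were chosen by name, with earlier results of these data known, as were the gene lists described below. Together the 10 genes have 23 of the 34958 probe sets that are paired with 1 gene, among 18194 genes tested. The samples were whole lungs of C57BL/6 mice, rinsed with PBS, taken at day 21 after saline or bleomycin, a DNA-breaking drug that scars the lung, was injected into the trachea. Wild type mice given saline, wild type mice given bleomycin, FIZZ2 knockout mice given saline and FIZZ2 knockout mice given bleomycin made up 4 groups of 3 arrays each. FIZZ2 is RELM-beta, a secreted resistin-like protein encoded by Retnlb. The labels do not describe the knockout allele, the age of the mice, or whether replicates are separate animals, so p-values measure only the spread between these samples, which may be technical.

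Smooth muscle shortens when actin filaments slide along myosin, after calcium switches on a kinase that phosphorylates the myosin light chain. In healthy lung these proteins belong mainly to the smooth muscle of airways and vessels, and pericytes carry some of them. After injury, fibroblasts can become myofibroblasts, which take up alpha smooth muscle actin into stress fibres and lay down matrix. The transcription factor SRF, with its partner myocardin or the related MRTF proteins, drives many of these genes through a DNA element called the CArG box.

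Promoter windows of 300 bases, 250 before to 50 after the annotated start, were held by RefSeq (GRCm38.p6) for 7 of the 10 genes. Tagln, Myh11 and Actg2 were not matched. The CArG box, a core of 6 bases of A or T between CC and GG that reads the same on both strands, was in 1.63% of 32851 such windows and in 0 of the 7 genes. A looser search allowed 1 of the 6 core bases to be another base. It found a match in 9.98% of all windows and in 1 of the 7 genes, Acta2, which held CCCTATATGG and CCTTGTTTGG. Their first bases lie at -84 and -34, counted from 0 at the annotated start. The windows of Acta2 and Tpm1 are shown because Acta2 is the gene with matches, while Tpm1, without one, had the smallest adjusted p of the 10 genes in wild type lungs. Capitals mark the matches. With these shares over all windows, 0 of 7 and 1 of 7 are near the background. Bases outside the windows were not searched, so a gene without a match here may hold the element elsewhere. A match of letters describes the window, and binding was not tested.
Acta2 promoter (chr19:34255324-34255623, minus strand): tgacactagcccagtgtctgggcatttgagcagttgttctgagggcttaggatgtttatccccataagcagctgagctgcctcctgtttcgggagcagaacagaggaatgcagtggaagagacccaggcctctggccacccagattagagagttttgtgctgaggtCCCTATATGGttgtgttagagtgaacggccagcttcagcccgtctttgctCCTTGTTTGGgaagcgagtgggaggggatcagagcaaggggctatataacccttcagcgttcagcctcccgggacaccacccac
Tpm1 promoter (chr9:67049164-67049463, minus strand): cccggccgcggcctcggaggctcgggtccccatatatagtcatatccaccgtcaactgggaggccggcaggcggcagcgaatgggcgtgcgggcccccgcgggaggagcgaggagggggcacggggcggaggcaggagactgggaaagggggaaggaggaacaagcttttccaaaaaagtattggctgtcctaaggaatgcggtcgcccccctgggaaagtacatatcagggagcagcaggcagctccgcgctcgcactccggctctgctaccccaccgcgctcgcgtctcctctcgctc

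Array medians lay between 5.58 and 5.68 on the log2 scale, and arrays of a group correlated at 0.988 to 0.997 over all probe sets. None of the 7 lung epithelial markers checked, such as Sftpc and Scgb1a1, had a mean under 5, the level below which a probe set is called dim here. Retnlb itself was dim, at 3.80 to 4.13 in wild type bleomycin lungs and 3.49 to 3.72 in knockout bleomycin lungs, so it offers no check of the genotype labels. For each contractile gene the probe set with the highest mean carries the main values below, given as log2 RMA values in the order of replicates 1, 2 and 3. Levels of different genes are not compared, since probe sets differ in brightness.

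Acta2 (1416454_s_at) stood at 11.90, 11.91 and 12.27 in wild type saline lungs, 12.78, 12.12 and 12.08 in wild type bleomycin, 11.86, 12.38 and 11.89 in knockout saline and 11.30, 11.49 and 11.48 in knockout bleomycin lungs. Acta2 encodes alpha smooth muscle actin, the usual marker of myofibroblasts. Its knockout bleomycin arrays all lay below the arrays of the other groups, and wild type bleomycin replicate 1 was the highest of all. Actg2 (1422340_a_at) stood at 8.08, 7.61 and 8.49 in wild type saline lungs, 9.44, 8.33 and 8.45 in wild type bleomycin, 7.52, 8.45 and 7.85 in knockout saline and 7.25, 7.24 and 7.56 in knockout bleomycin lungs. Actg2 encodes gamma smooth muscle actin and showed the same high array, with knockout bleomycin below wild type bleomycin without overlap. The mean of Actg2 was 8.74 ± 0.61 (SD, n = 3) in wild type bleomycin lungs, 8.06 ± 0.44 in wild type saline, 7.94 ± 0.47 in knockout saline and 7.35 ± 0.19 in knockout bleomycin lungs. Actin genes have closely similar coding sequences, so signal from one may reach the probes of another.

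Tagln (1423505_at) stood at 11.08, 11.15 and 11.36 in wild type saline lungs, 12.15, 11.51 and 11.44 in wild type bleomycin, 10.95, 11.51 and 11.17 in knockout saline and 10.59, 10.77 and 10.99 in knockout bleomycin lungs. Tagln encodes transgelin, also known as SM22-alpha. Wild type bleomycin arrays lay above both wild type saline arrays and knockout bleomycin arrays. Cnn1 (1417917_at) stood at 9.05, 8.56 and 9.48 in wild type saline lungs, 8.95, 8.29 and 8.57 in wild type bleomycin, 8.44, 9.72 and 8.61 in knockout saline and 8.01, 8.18 and 8.55 in knockout bleomycin lungs. Cnn1 encodes calponin 1, which restrains the myosin ATPase in smooth muscle. Its groups overlapped in all 4 comparisons made between groups, and replicate 2 of knockout saline stood apart in a group with an SD of 0.70. Cald1 (1424769_s_at) stood at 11.77, 11.74 and 11.70 in wild type saline lungs, 12.32, 12.08 and 11.97 in wild type bleomycin, 11.74, 11.70 and 11.73 in knockout saline and 11.64, 11.78 and 11.58 in knockout bleomycin lungs. Cald1 encodes caldesmon, which has a smooth muscle form and a shorter form found in many cells. The wild type bleomycin arrays stood above all 9 others, and those 9 lay within 11.58 and 11.78. Tpm1 (1423721_at) stood at 10.82, 10.68 and 10.97 in wild type saline lungs, 11.54, 11.39 and 11.57 in wild type bleomycin, 10.72, 10.90 and 10.84 in knockout saline and 10.87, 10.76 and 11.11 in knockout bleomycin lungs. Tpm1 encodes alpha-tropomyosin, the rod along the actin groove, which muscle and non-muscle cells splice differently. Here too all wild type bleomycin arrays were above all others.

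Myh11 (1448962_at) stood at 9.50, 9.05 and 9.89 in wild type saline lungs, 9.58, 9.02 and 9.17 in wild type bleomycin, 9.51, 10.08 and 9.50 in knockout saline and 8.73, 8.79 and 8.97 in knockout bleomycin lungs. Myh11 encodes the smooth muscle myosin heavy chain. Knockout bleomycin arrays were its lowest 3 of 12, and knockout saline replicate 2 the highest. Mylk (1425506_at) stood at 10.98, 10.84 and 11.03 in wild type saline lungs, 10.88, 10.93 and 10.78 in wild type bleomycin, 11.10, 11.24 and 11.12 in knockout saline and 10.87, 10.84 and 10.82 in knockout bleomycin lungs. Mylk encodes the myosin light chain kinase. Knockout saline arrays were above all the others, and the remaining groups overlapped. Lmod1 (1427485_at) stood at 6.65, 6.77 and 6.71 in wild type saline lungs, 6.77, 6.56 and 6.47 in wild type bleomycin, 6.78, 7.23 and 6.68 in knockout saline and 6.30, 6.27 and 6.17 in knockout bleomycin lungs. Lmod1 encodes leiomodin 1, which starts new actin filaments in smooth muscle. Its knockout bleomycin arrays lay below every other array. Des (1426731_at) stood at 9.57, 9.52 and 9.57 in wild type saline lungs, 10.19, 9.42 and 9.40 in wild type bleomycin, 9.04, 9.56 and 9.47 in knockout saline and 8.86, 9.04 and 9.14 in knockout bleomycin lungs. Des encodes desmin, the intermediate filament of muscle cells, cardiac and skeletal muscle included. Wild type bleomycin replicate 1 stood apart at 10.19, and knockout bleomycin overlapped knockout saline.

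**Figure D1:**
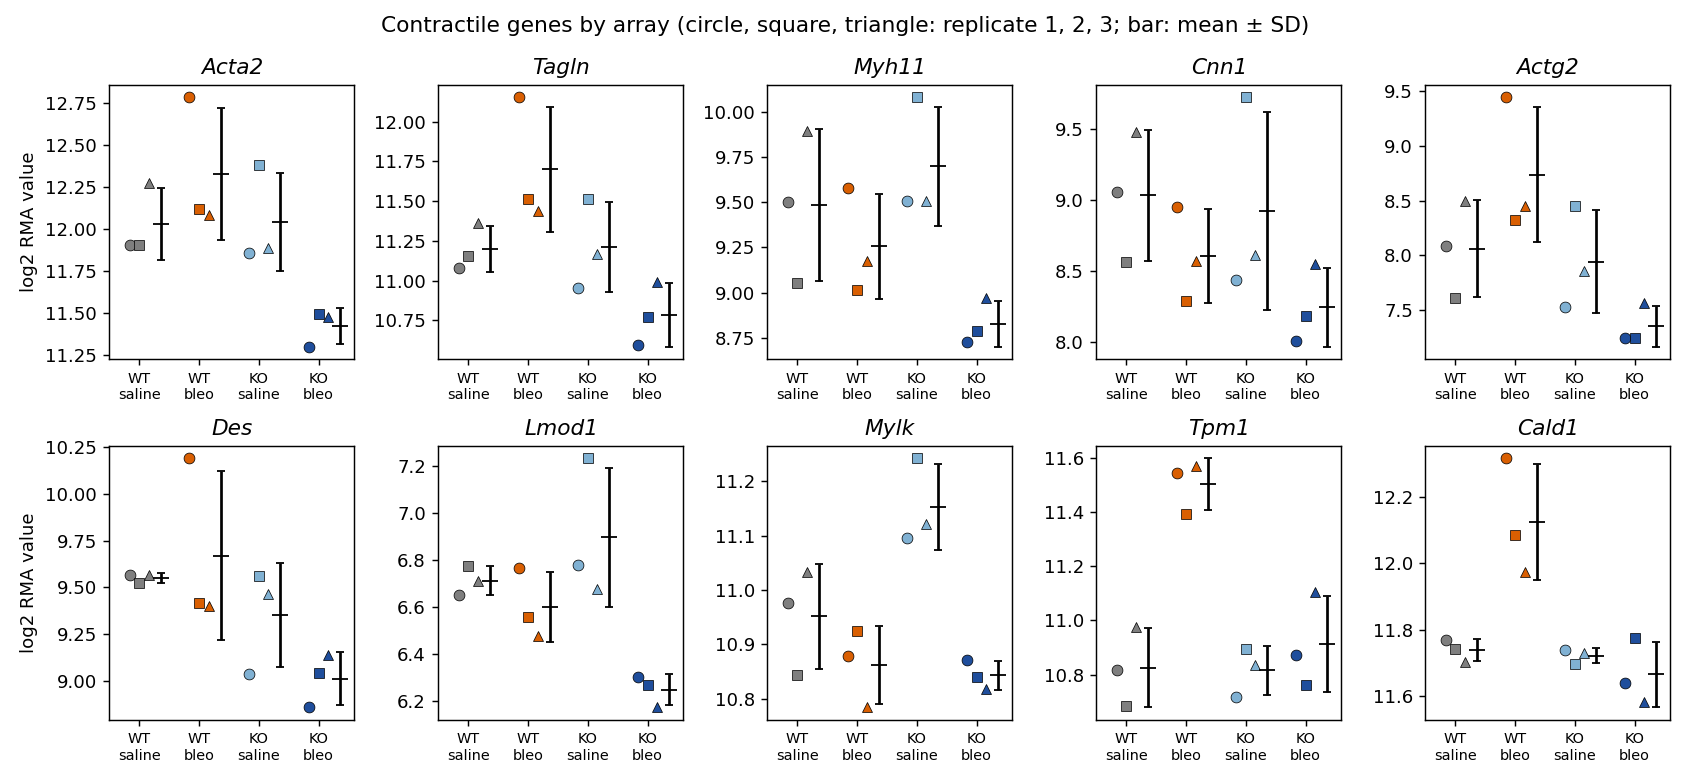
Log2 RMA values (y axis) of the 10 genes on their brightest probe sets, by group (x axis), with 1 point per array and the group mean ± SD (n = 3) as a bar beside the points. Tpm1 and Cald1 are high in all 3 wild type bleomycin arrays, whereas Acta2, Actg2, Tagln and Des are highest in replicate 1 of that group, at 12.78, 9.44, 12.15 and 10.19.

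Single arrays carried much of the spread within groups. On wild type bleomycin replicate 1, 8 of the 10 genes were the highest of their group, and on knockout saline replicate 2, 9 of 10. Wild type saline replicate 3 was the highest of its group for 8. Averaged over the 10 genes, wild type bleomycin replicate 1 lay 0.32 above its group mean and knockout saline replicate 2 lay 0.30 above its own. Across the 12 arrays, as deviations from group means, the 45 pairs of genes had Pearson r from -0.36 (Tpm1 with Cald1) to 0.94 (Myh11 with Cnn1), with 11 pairs above 0.8. These are descriptions over arrays that share a platform and a normalization. Actg2 followed the mean of the other 9 most closely (r = 0.97) and Cald1 least (0.30). Outside the 10 genes, those with a mean of at least 5 whose deviations were most like the mean of all 10 were Rrad (r = 0.97), Myl9 (0.95), Hsd3b7 (0.92), Serpinf1 (0.91) and Lce3c (0.90). Myl9 encodes a regulatory myosin light chain of smooth muscle.

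**Figure D2:**
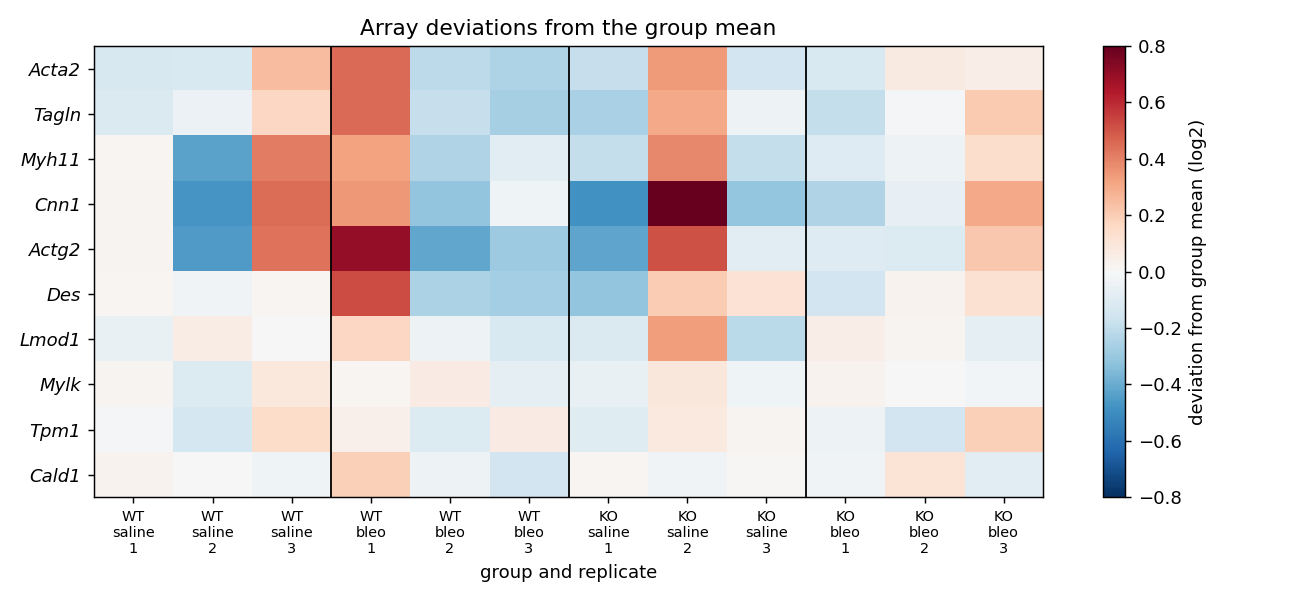
Deviation of each array from its group mean (colour, log2 scale) for the 10 genes (rows) on the 12 arrays (columns, by group and replicate). Red columns at wild type bleomycin replicate 1 and knockout saline replicate 2 show genes moving together within an array, from Acta2 to Des, while Mylk deviates little on any array.

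In wild type lungs Tpm1 and Cald1 rose with bleomycin, and the other 8 genes did not pass the test, set at an adjusted p under 0.05 over all genes. The rise of Tpm1 was 1.60-fold (0.68 ± 0.10 on the log2 scale, SE, with 3 arrays in each group, limma, adjusted p = 0.00037). Cald1 rose 1.31-fold (0.39 ± 0.09, adjusted p = 0.00597). Among all genes 27.7% were called in this comparison and 13.3% were called higher (14.4% lower), so 2 of 10 is near the background. Arrays did not overlap for 3 genes, all higher (17.2% of all genes), the third being Tagln with a log2 change of 0.50 ± 0.19 (adjusted p = 0.0608). For Tagln the change was 0.28 without wild type bleomycin replicate 1 (adjusted p = 0.232), and it passed without replicate 3 of that group (0.63, adjusted p = 0.0359). The median change of the 10 genes was 0.21, against -0.04 over all genes.

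The values of the actins and desmin moved with 1 wild type array. Acta2 had a log2 change of 0.30 (95% interval -0.10 to 0.70, adjusted p = 0.259), which was 0.07 without wild type bleomycin replicate 1. Actg2 had 0.68 (interval 0.03 to 1.33, adjusted p = 0.114), or 0.32 without that array. For Des the change was 0.12 (interval -0.29 to 0.52) and -0.14 without it. The tests leave room for a rise of Acta2 of up to 0.70 on the log2 scale and do not show that it stayed level. Myh11 (-0.23), Cnn1 (-0.43), Lmod1 (-0.11) and Mylk (-0.09) had changes of the other sign, with intervals that include 0. Leaving out wild type bleomycin replicate 1 together with knockout saline replicate 2, chosen after seeing the data, kept 2 calls, both higher. In bulk tissue, fewer cells of a type and less RNA per cell cannot be told apart.

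In knockout lungs Lmod1, Myh11 and Mylk fell with bleomycin, and none of the 10 genes rose. Lmod1 fell by 0.65 ± 0.13 on the log2 scale (SE, n = 3 per group, limma, adjusted p = 0.0159), Myh11 by 0.87 ± 0.21 (adjusted p = 0.0426) and Mylk by 0.31 ± 0.08 (adjusted p = 0.0472). Over all genes 3.26% were called and 1.29% were called lower (360 higher and 234 lower, or 429 and 139 with array medians subtracted). Estimates were below 0 for 9 of the 10 genes, the exception being Tpm1 (0.10), and the median was -0.51 against 0.01 over all genes. Arrays did not overlap for 4 genes, all lower (11.8% of all genes), among them Acta2 at -0.62 (interval -1.02 to -0.22, adjusted p = 0.0949). Tagln (-0.42), Cnn1 (-0.68), Actg2 (-0.59), Des (-0.34) and Cald1 (-0.06) did not pass.

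These calls were close to the threshold. Myh11 and Mylk lost theirs without any 1 of 9 arrays (wild type saline replicate 1, wild type bleomycin replicates 2 and 3, all knockout saline and all knockout bleomycin arrays), with adjusted p of up to 0.173 for Myh11 and 0.191 for Mylk. Lmod1 lost its call without knockout bleomycin replicate 2 (0.0535) or 3 (0.0638). Acta2 passed without wild type bleomycin replicate 1 (adjusted p = 0.0294), an array outside this comparison that enters the shared spread. The change of Cnn1 was -0.28 without knockout saline replicate 2. With that array and wild type bleomycin replicate 1 both left out, Lmod1 alone was called.

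**Figure D3:**
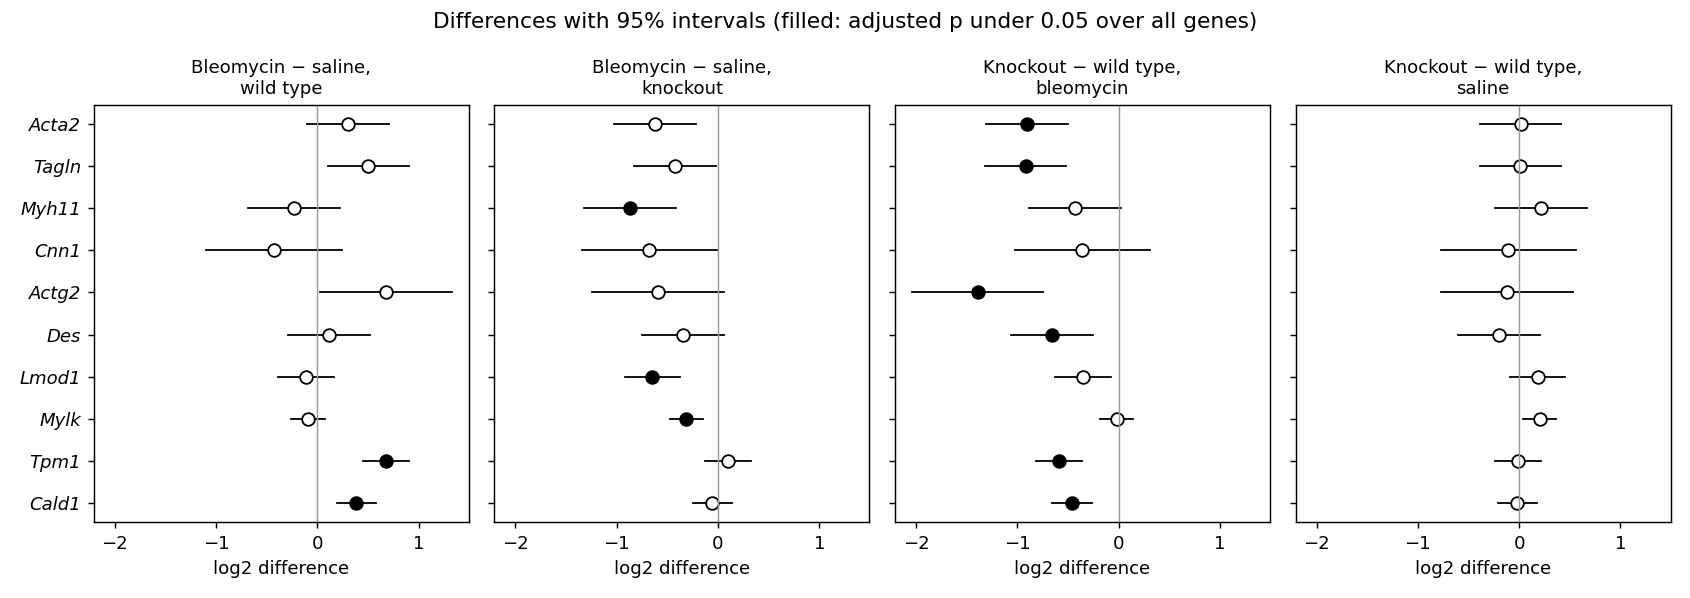
Log2 differences (x axis) of the 10 genes (y axis) in 4 comparisons, with 95% intervals from the limma fit; filled points have an adjusted p under 0.05 over all genes. Filled points lie right of 0 for Tpm1 and Cald1 in wild type lungs, and left of 0 for 3 genes in knockout lungs and for 6 genes between genotypes after bleomycin.

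After bleomycin, 6 of the 10 genes were lower in knockout than in wild type lungs and none was higher. Actg2 was 2.62-fold lower (log2 difference -1.39 ± 0.30, SE, n = 3 per group, limma, adjusted p = 0.00766), Tagln 1.89-fold (-0.92 ± 0.19, adjusted p = 0.00527) and Acta2 1.87-fold (-0.91 ± 0.19, adjusted p = 0.00585). Tpm1 (-0.59 ± 0.10, adjusted p = 0.00242), Cald1 (-0.46 ± 0.09, adjusted p = 0.00442) and Des (-0.66 ± 0.19, adjusted p = 0.0319) also passed. In this comparison 15.4% of all genes were called and 7.89% were called lower. All 10 estimates were below 0, and the arrays of 8 genes did not overlap, all lower (15.4% of all genes). The median was -0.52 against 0.03 over all genes.

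Myh11 (-0.43, interval -0.88 to 0.03), Cnn1 (-0.36, interval -1.03 to 0.31), Lmod1 (-0.35, adjusted p = 0.0804) and Mylk (-0.02, interval -0.19 to 0.15) did not pass. Lmod1 passed without knockout saline replicate 2 (adjusted p = 0.0219), and Mylk's sign turned with wild type bleomycin replicate 2 left out (0.012). Without wild type bleomycin replicate 1, the differences were -0.68 for Acta2, -0.69 for Tagln and -1.04 for Actg2, which all passed. Des lost its call without that array (-0.40, adjusted p = 0.0896), without knockout bleomycin replicate 1 (0.116) and without knockout bleomycin replicate 2 (0.0696). With wild type bleomycin replicate 1 and knockout saline replicate 2 left out together, 5 of the 10 genes were called, all lower.

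After saline no difference between the genotypes passed the test in the 10 genes. The count was 0 of 10 with limma (1 at an unadjusted p under 0.05, Mylk), where 0.489% of all genes were called (54 higher and 35 lower, or 37 and 40 with array medians subtracted). The estimate for Mylk was 0.20 (interval 0.04 to 0.37, adjusted p = 0.378), and its knockout arrays lay above its wild type arrays, as for 7.28% of all genes. By probe set 0 of the 23 passed with limma (1 at an unadjusted p under 0.05, with 0.226% of all probe sets called). Acta2 had 0.01 (interval -0.39 to 0.42) and Tagln 0.01 (interval -0.39 to 0.41), both just below 0 with array medians subtracted (-0.026 and -0.028). For Cnn1 the interval ran from -0.77 to 0.56 and for Actg2 from -0.77 to 0.53. With 3 arrays per group, differences of that size were thus not excluded.

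The difference between the bleomycin responses of the genotypes was called for Tpm1 alone. Its knockout response was 0.58 ± 0.15 lower than its wild type response on the log2 scale (limma, interaction term, estimate -0.58, adjusted p = 0.0416). In this contrast 5.02% of all genes were called and 3% were called lower (369 higher and 545 lower, 432 and 420 with array medians subtracted, or 469 and 447 after a second quantile normalization). All 10 estimates were below 0, with a median of -0.56 against 0.04 over all genes. The next smallest adjusted p-values were those of Tagln (-0.93 ± 0.26, adjusted p = 0.0603), Acta2 (-0.92 ± 0.26, adjusted p = 0.0632) and Cald1 (-0.44 ± 0.13, adjusted p = 0.0632). Actg2 had the largest estimate (-1.27, interval -2.19 to -0.35, adjusted p = 0.103) and Cnn1 an interval from -1.20 to 0.69, with a sign that turned without knockout saline replicate 2 (0.15).

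The call of Tpm1 was lost in 9 of the 12 fits that left out 1 array, at adjusted p from 0.0683 to 0.0983, and it was kept without wild type saline replicate 3, wild type bleomycin replicate 2 or knockout bleomycin replicate 3. It was also lost with array medians subtracted (0.0505), after a second quantile normalization (0.0511) and with probe sets averaged (0.124). Without wild type bleomycin replicate 3, Tagln (adjusted p = 0.0457) and Cald1 (0.0406) passed instead. By probe set 0 of the 23 passed in this contrast with limma (13 at an unadjusted p under 0.05, with 2.44% of all probe sets called). The 2 responses, the genotype comparisons and this difference share arrays, so they are not independent of each other.

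The other probe sets of the same genes were fitted together with all 34958, and 6 of the 23 were dim. In wild type lungs 6 of the 23 rose with bleomycin and 1 fell, where 21.4% of all probe sets were called (11.3% higher and 10.1% lower). Of the 5 Cald1 probe sets 4 rose, by log2 changes of 0.39 (1424769_s_at), 0.51 (1424770_at), 0.93 (1424768_at) and 0.95 (1433147_at), the last at adjusted p = 0.0136. The fifth, 1433146_at, was dim at 4.07 and had -0.23. For Tpm1, 1423721_at rose by 0.68 and 1456623_at by 0.50 (adjusted p = 0.0295), while 1423049_a_at had 0.46 (adjusted p = 0.132). The remaining Tpm1 probe set, 1447713_at, had a mean of 3.07 and fell by 0.45 (adjusted p = 0.0418), and averaging all Tpm1 probe sets gave 0.30 (adjusted p = 0.0898).

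Between genotypes after bleomycin the brighter probe sets pointed one way. Of the 17 that were not dim, all 17 had estimates below 0 for knockout against wild type, and 8 of the 23 were called lower (10% of all probe sets were called and 5.64% called lower). Estimates above 0 came from 3 of the 23, all dim. The Myh11 probe set 1418122_at (mean 4.65) had 0.12. Cald1 1433146_at had group means of 3.88 in wild type and 4.12 in knockout bleomycin lungs, and Tpm1 1447713_at of 2.83 and 2.87. The dim Des probe set 1426732_at (mean 4.01) had -0.03. Acta2 had -0.91 on 1416454_s_at (adjusted p = 0.0106 over all probe sets), -0.65 on 1444105_at (mean 4.39, adjusted p = 0.107) and -0.14 on 1456658_at (mean 3.76). In knockout lungs bleomycin lowered 1 of the 23, that of Lmod1 (adjusted p = 0.0298), where 1.61% of all probe sets were called and 0.529% called lower. The 3 Mylk probe sets had -0.39, -0.27 and -0.31 there.

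**Figure D4:**
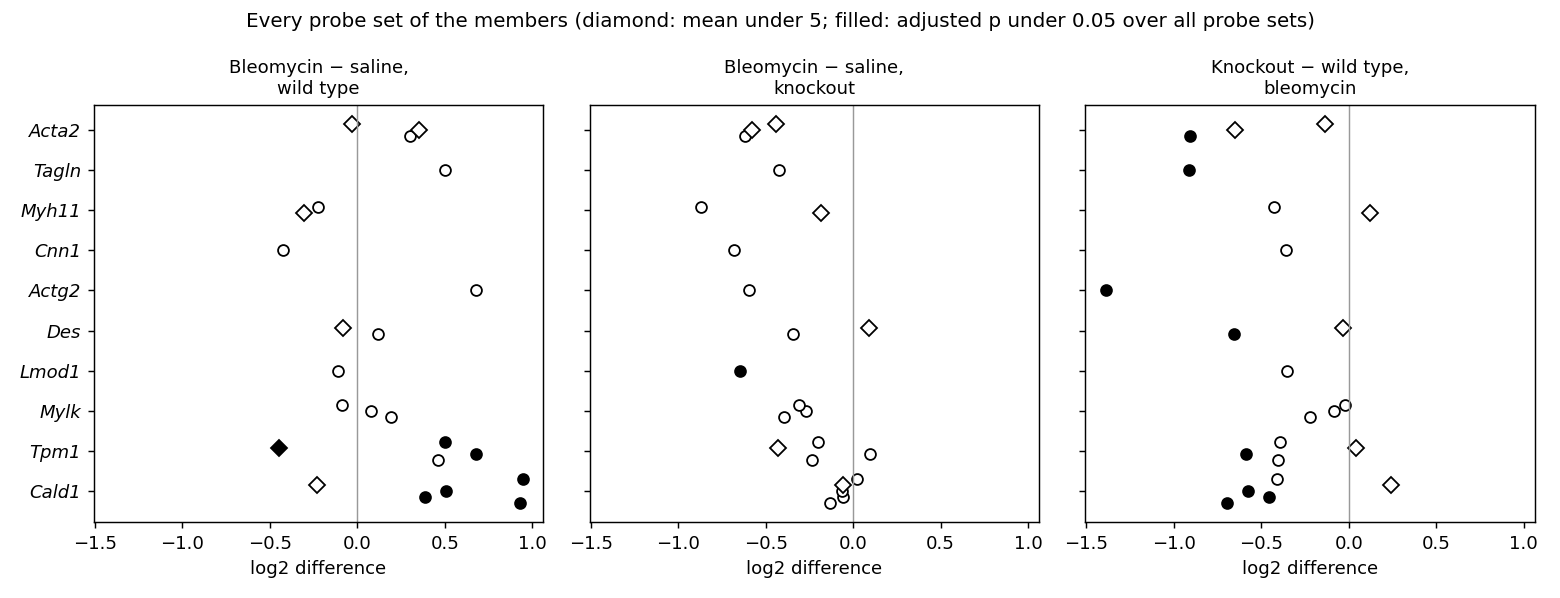
Log2 difference (x axis) of each of the 23 probe sets, by gene (y axis), in 3 comparisons; diamonds are probe sets with a mean under 5, and filled symbols have an adjusted p under 0.05 over all probe sets. The 4 filled Cald1 circles lie right of 0 in wild type lungs, and the only filled diamond is the dim Tpm1 probe set at -0.45.

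Of 22 measured genes among the other smooth muscle contractile and cytoskeletal genes, 4 rose and 5 fell with bleomycin in wild type lungs, with a median of 0.06. Over all genes 13.3% were called higher and 14.4% lower, so these counts are near the background. The falls included Itga8, an integrin chain of smooth muscle and fibroblasts (-0.86 ± 0.10, SE, limma, adjusted p = 3.96e-05), the intermediate filament gene Synm (-1.28 ± 0.15, adjusted p = 5.71e-05) and Pgm5, a protein of muscle adhesion plaques (-0.95 ± 0.13, adjusted p = 0.00019). Actn1, the actin crosslinker alpha-actinin 1, rose (0.76 ± 0.09, adjusted p = 6.41e-05). The remaining calls, named because they are few, were Lpp, Flna and Pdlim7 higher and Pln and Ppp1r14a lower. Pln and Synm are also genes of cardiac muscle. After bleomycin 7 of the 22 were lower in knockout lungs and 4 higher, with a median of -0.12. In that contrast 7.89% of all genes were called lower and 7.52% higher. Actn1 (-0.72) and Pdlim7 (-0.98) were lower there, Synm (0.98) and Itga8 (0.59) higher.

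In knockout lungs bleomycin lowered 2 of these 22 genes, Pln (-1.39, limma, adjusted p = 0.04) and Synpo2 (-0.89, adjusted p = 0.043), and raised none, with a median of -0.16. There 1.29% of all genes were called lower and 1.98% higher. With bleomycin in wild type lungs, 13.3% of all genes were called higher and 14.4% lower. Among 12 non-muscle actomyosin genes, 4 rose and 2 fell there. They included the non-muscle tropomyosin Tpm4 (0.50 ± 0.09, adjusted p = 0.00119), vimentin (Vim, 0.44 ± 0.08, adjusted p = 0.00131) and the non-muscle myosin Myh9 (0.31 ± 0.08, adjusted p = 0.00932) as rises and Myh10, another non-muscle myosin, as a fall (-0.54 ± 0.08, adjusted p = 0.000411). In knockout lungs 0 of the 12 passed with limma, and 1 had an unadjusted p under 0.05. Between genotypes after bleomycin Tpm4 (-0.38), Myh9 (-0.32) and Vim (-0.31) were lower and Myh10 (0.36) higher in knockout lungs, 3 lower and 2 higher in all. The shares of all genes called were 7.89% lower and 7.52% higher.

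Of 11 SRF and myocardin factors and partners, 0 passed in wild type lungs (limma, 3 at an unadjusted p under 0.05) and 0 in knockout lungs (3 likewise). Between genotypes after bleomycin 1 of the 11 was lower, Csrp2, a LIM protein of smooth muscle (-0.63, adjusted p = 0.0232), and 7 had an unadjusted p under 0.05. In this contrast 7.89% of all genes were called lower, so 1 of 11 is near the background. Among those that did not pass there were Fhl2 (-0.63), Myocd (-0.51), Mrtfb (-0.18) and Srf (0.21). Srf had -0.16 with bleomycin in wild type lungs, Myocd 0.09 and Mrtfa 0.09, and none passed. Among 14 measured genes of myosin phosphorylation and calcium, the small GTPase Rhoa rose in wild type lungs (0.23 ± 0.07, adjusted p = 0.0279) and the other 13 did not pass. Since 13.3% of all genes were called higher there, 1 of 14 is near the background. In knockout lungs 0 of the 14 passed with limma, and 4 had an unadjusted p under 0.05.

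Matrix genes of fibroblasts and myofibroblasts moved on the same arrays. Of 13 measured, 11 rose and 1 fell in wild type lungs, with a median of 1.23, where 13.3% of all genes were called higher and 14.4% lower. The fall was that of the receptor gene Pdgfra (-0.41, limma, adjusted p = 0.0212), which had -0.41 in knockout lungs too (adjusted p = 0.0892). Thy1 did not pass in wild type lungs (0.26, adjusted p = 0.154). Tnc rose by 4.04 ± 0.26, Col1a1 by 2.45 ± 0.19, Fn1 by 2.13 ± 0.13 and Col3a1 by 1.09 ± 0.10 on the log2 scale (limma, adjusted p of 6.89e-06 or less for all 4), against 0.30 for Acta2. In knockout lungs 6 of the 13 rose and none fell (1.98% of all genes called higher). Their median was 0.71, while the median of the contractile genes was -0.51. Col3a1, which was lower in knockout than in wild type lungs after saline (-0.55, adjusted p = 0.0303), rose by 1.14 (adjusted p = 0.000147) where Acta2 had -0.62. After bleomycin 11 of the 13 were lower in knockout lungs (7.89% of all genes called lower), with a median of -1.23 against -0.52 for the contractile genes.

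Markers of other cells that express contractile proteins moved on these arrays as well. Of 11 pericyte markers 5 rose with bleomycin in wild type lungs and 6 were lower in knockout than in wild type bleomycin lungs. Of all genes 13.3% were called higher in the first contrast and 7.89% lower in the second. Rgs5 rose by 2.52 ± 0.26 in wild type lungs (adjusted p = 1.96e-05), and Cspg4 by 0.76 and Mcam by 0.55. In knockout lungs 0 of the 11 passed with limma (0 at an unadjusted p under 0.05). The summed linear level of the 11, in which the brightest genes weigh most, ran from 6362 to 8550 in wild type bleomycin lungs. It was highest there in replicate 1 and ran from 4620 to 5427 in the other groups. The knockout saline arrays, of which replicate 2 was high for the contractile genes, lay close together here, at 4729, 4625 and 4696. None of the 11 was dim. Their part in the contractile results was not tested.

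After bleomycin all 12 cardiac muscle markers fell in wild type lungs, with a median of -1.83. In knockout lungs 2 of them passed, and all 12 had estimates below 0 and an unadjusted p under 0.05 (limma). The median there was -1.22. The difference between the 2 responses was called for 0 of the 12 markers (0 at an unadjusted p under 0.05). Their summed level lay between 7854 and 11318 in wild type saline, 2225 and 3256 in wild type bleomycin, 8133 and 13147 in knockout saline, and 2382 and 9871 in knockout bleomycin lungs. Knockout saline replicate 2, high for the contractile genes, was the highest array. Replicate 3 of that group, close behind at 12347, was the highest of its group for 0 of the 10 contractile genes. Wild type bleomycin replicate 1, the highest array for the summed contractile genes, was among the lowest for the cardiac markers (2238). None of the 12 markers was dim. Between genotypes after bleomycin 0 of the 12 passed with limma (9 at an unadjusted p under 0.05), all with estimates above 0, where those of the contractile genes were below 0. Des and Tpm1 are also genes of cardiac muscle, and the part of heart or pulmonary vein tissue in their values was not tested. Of 12 skeletal muscle markers 8 were dim, among them Myh1, Myh2, Myh4 and Pvalb. The dim Pvalb rose and Ckm fell in wild type lungs (0.34 and -1.46). After bleomycin Ckm was higher in knockout than in wild type lungs (1.06, limma, adjusted p = 0.021), as 1 of the 12, and 0 were lower. In that contrast 7.52% of all genes were called higher. The summed level of the 12 skeletal muscle markers was between 257 and 399 on all arrays. Of 6 measured adipocyte markers 1 fell in wild type lungs and 0 in knockout lungs with limma, where 5 had an unadjusted p under 0.05. Of 5 macrophage markers 3 rose in each genotype. Lung epithelial markers fell in wild type lungs (3 of 7), and endothelial markers fell in wild type (4 of 5) and knockout lungs (2 of 5). With bleomycin 13.3% of all genes were called higher and 14.4% lower in wild type lungs. The shares in knockout lungs were 1.98% and 1.29%.

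Markers of these cells also differed between genotypes after bleomycin, the contrast in which 6 contractile genes were lower. Of all genes 7.89% were called lower and 7.52% higher there. The macrophage genes Mrc1 (-0.68), Cd68 (-0.56) and Adgre1 (-0.53) were lower in knockout lungs, 3 of 5 measured. Higher in knockout lungs were the endothelial genes Kdr (0.63), Tek (0.36) and Cldn5 (0.35), 3 of 5, and the surfactant genes Sftpa1 (0.75) and Sftpb (0.49), 2 of 7 epithelial markers. The part of these cells in the contractile results was not tested.

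**Figure D5:**
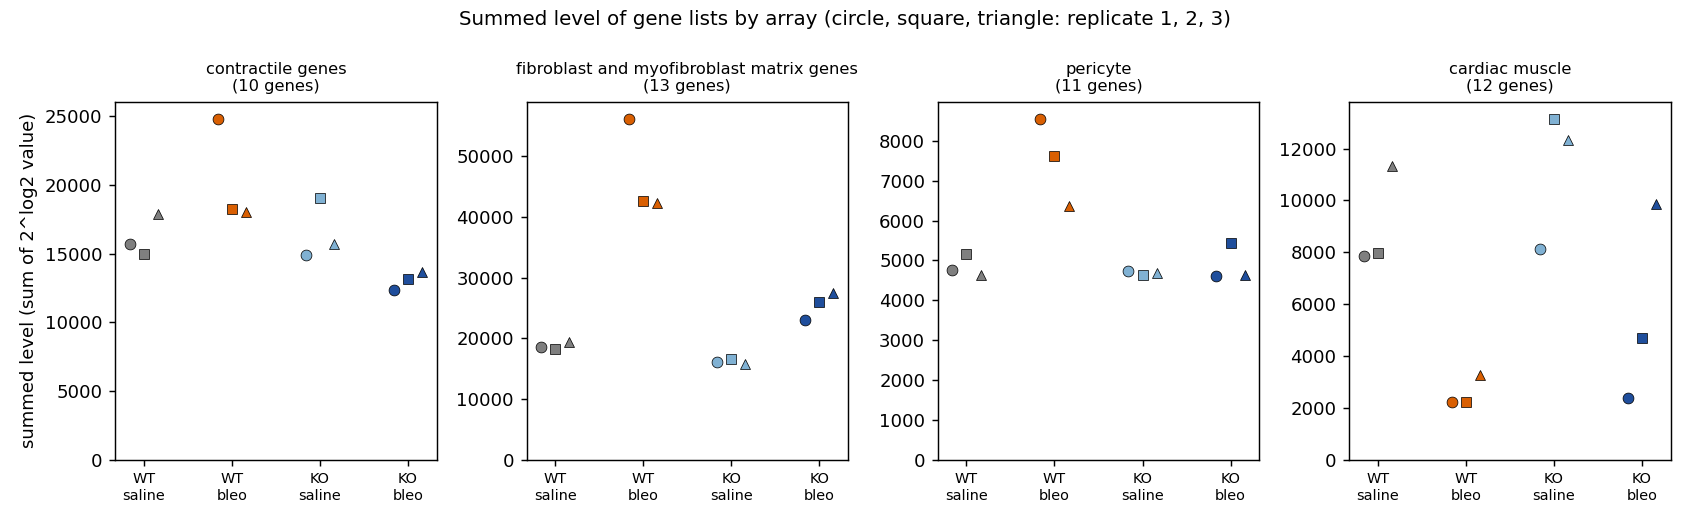
Summed linear level (y axis, sum of values taken out of the log2 scale) of 4 gene lists on each array, by group (x axis). The brightest genes of a list weigh most in its sum. The contractile genes reach 24805 on wild type bleomycin replicate 1 and lie between 12376 and 13662 in knockout bleomycin lungs, while the matrix genes separate both bleomycin groups from saline.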

How the data were processed

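Each of the 12 lung RNA samples was hybridised to 1 Affymetrix array, and the deposited values are log2 RMA values over 45101 probe sets, made by the authors with the affy package, per the submitters' processing notes, which give no version. Quantile normalization within RMA gives arrays like distributions, so a change shared by most genes would be removed. Of the probe sets 34958 were paired with 1 gene, 932 with several and 9211 with none. The brightest probe set stood for each of 18194 genes.

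One limma model (version 3.58.1, R 4.3.3) with a mean per group was fitted to all 12 arrays, with 8 residual and 4.86 prior degrees of freedom, and p-values were Benjamini-Hochberg adjusted over all genes. A second fit used all 34958 probe sets. Genes called had an adjusted p under 0.05. Members and gene lists were chosen with earlier results of these data known. Of each list, up to 4 genes with the smallest p in a contrast were named, and further ones, where a count was small, were chosen after their values were seen. The 5 genes most like the members had the highest Pearson r of deviations from group means. Of 18 pairs of arrays with the same replicate number in different groups, 2 correlated above 0.1, so the numbers were not used as pairs. Figures used matplotlib 3.10.9.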

Additional observations from a re-analysis of the deposited data

Results flagged for a closer look

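The response of Tpm1, the tropomyosin gene, to bleomycin differed between the genotypes by a test of the difference itself (limma, interaction term). The knockout response was lower by 0.58 ± 0.15 on the log2 scale (estimate -0.58, adjusted p = 0.0416). The call was lost in 9 of the 12 fits that left out 1 array, at adjusted p from 0.0683 to 0.0983. It was also lost with array medians subtracted (0.0505), a second quantile normalization (0.0511), averaged probe sets (0.124) and all probe sets fitted together (0.0652), and without wild type bleomycin replicate 1 and knockout saline replicate 2 together. In wild type lungs all 3 bleomycin arrays (11.39 to 11.57) lay above the saline arrays (10.68 to 10.97), and in knockout lungs the ranges (10.76 to 11.11 and 10.72 to 10.90) overlapped. No outlier test was run on single arrays, since each group holds 3.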

How the results depend on the processing

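The planned settings and 1 chosen after seeing the data changed calls in both responses and in their difference. In wild type lungs 1 of the 10 genes was called when probe sets of a gene were averaged, and 2 to 3 when 1 array was left out. In knockout lungs 1 was called, not 3, with averaged probe sets, with all probe sets fitted together, with the replicate number as a block and without wild type bleomycin replicate 1 and knockout saline replicate 2 together. With 1 array left out the count ran from 0 to 4. For the difference between responses 0 were called, not 1, with array medians subtracted, a second quantile normalization, averaged probe sets, all probe sets together and both arrays out, 2 with a trended robust fit or without _s_at and _x_at probe sets, and 4 with array weights, with 0 to 2 when 1 array was left out. Between genotypes 0 were called after saline under every setting run, and after bleomycin 5 to 7 when 1 array was left out. Numbered replicates did not deviate together (same-number correlations from -0.297 to 0.203, with 2 of 12 arrays closest to their own number). The replicate block called 2, 1, 1, 0 and 5 genes in wild type, knockout, their difference, saline and bleomycin, and 601 genes of all in the difference between responses.

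Over all genes, array weights called 1286 in knockout lungs, 1888 in the difference and 1105 after saline. With both arrays out the counts were 291 in knockout lungs, 389 in the difference, 49 after saline and 1559 after bleomycin, and the fit of 2 groups alone called 37 after saline. Leaving out 1 array gave 4052 to 5004 in wild type lungs, 211 to 796 in knockout lungs, 380 to 1052 in the difference, 24 to 112 after saline and 1653 to 3138 after bleomycin. Signs turned for values that had not passed. In wild type lungs Mylk had 0.060 with averaged probe sets, and Des -0.043 with array weights and -0.14 with both arrays out. Tpm1 in knockout lungs had -0.19 with averaged probe sets. Cnn1 in the difference had 0.32 with both arrays out. After saline, Acta2 had -0.026 and Tagln -0.028 with medians subtracted, and -0.16 and -0.14 with both arrays out, while Tpm1 had 0.15 and Cald1 0.18 with averaged probe sets. With 1 array left out, Des in wild type lungs ran from -0.14 to 0.25, Cnn1 in the difference from -0.49 to 0.15 and Mylk after bleomycin from -0.059 to 0.012. After saline Acta2 ran from -0.16 to 0.14, Tagln from -0.14 to 0.14, Myh11 from -0.00042 to 0.42, Cnn1 from -0.51 to 0.14, Actg2 from -0.37 to 0.097 and Tpm1 from -0.080 to 0.065. The cause of these changes was not tested. With 3 arrays per group, intervals of single genes reach about the size of the differences described, and dim probe sets have little signal over background.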
